A study of Homo sapiens with 27 samples.

Results

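Levels of 10 genes for secreted matrix glycoproteins other than laminins were followed in H1 cells, which are an established line of human embryonic stem cells, as they were carried toward photoreceptor progenitors on laminin matrices. The genes were chosen by symbol: NID1, NID2, HSPG2, AGRN, FN1, TNC, VTN, SPARC, NTN1, and NTN4. All 10 were found by Ensembl identifier among the 44852 genes of the deposited tables. The bulk RNA-seq libraries came from 3 matrices at days 2, 22, and 32, with 3 replicates in each of the 9 groups. Per the labels, the day 2 cells were undifferentiated H1 cells, and the day 22 and day 32 cells were derived photoreceptor progenitors of the same line, so that every group carries 1 genetic background. No sort of the cells is described. The sample titles number the same days 0, 20, and 30, and the days used here are those of the sample characteristics. The cultures received a neural induction medium with the inhibitors CKI-7 and SB431542 from day 2 and then a photoreceptor medium with BDNF, CNTF, retinoic acid, and DAPT, and the day 2 cells mark the start of that change. The matrices are named LN523, LN323, and LN521 by their leading isoform, because the labels and the study's methods pair them differently. The labels combine LN523 and LN521 each with LN323 and use LN323 alone, whereas the methods combine LN523 and LN323 each with LN521 and use LN521 alone. No source says that the replicates were separate cultures, so the p-values measure the spread between these libraries, which may be technical.

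A basement membrane is a thin sheet of matrix that is built on a laminin network and a collagen IV network. Nidogens link both networks, and the heparan sulfate proteoglycans perlecan and agrin bind laminin and hold growth factors. Fibronectin, tenascin-C, and vitronectin are matrix glycoproteins that cells read through integrins, SPARC binds collagen and modulates cell adhesion, and netrins share domains with laminin short arms and guide axons or bind the laminin network. In the eye, such sheets underlie the retinal pigment epithelium and line the inner surface of the neural retina.

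The libraries held between 25620624 and 47340990 counts (median 39862487). Of the nonzero counts, 68.8% were even numbers. Whether both reads of a pair were counted, in which case the counts stand for fewer fragments, is not given in the sources used here. The markers of the labelled cell states were present. POU5F1, a pluripotency factor, was at 1462 to 2438 CPM (a gene's share of the library's counts, scaled to 1000000 after TMM normalization) in the day 2 libraries and at 0.865 to 2.44 CPM in the day 22 and day 32 libraries, except in replicate 1 on LN521, which held 73.8 CPM at day 22 and 14.7 CPM at day 32. The summed level of 6 neural retina progenitor markers was 3.56 to 6.91 CPM at day 2, 922 to 1974 CPM at day 22, and 935 to 2204 CPM at day 32. The 6 photoreceptor markers summed to only 7.61 to 19.1 CPM at day 22 and 11.6 to 132 CPM at day 32. Libraries also held markers of other cell types. The summed level of 8 mesenchymal cell markers was 306 to 623 CPM at day 2, 1916 to 5632 CPM at day 22, and 2419 to 16898 CPM at day 32, with the day 32 maximum in replicate 2 on LN323 and the next value, 11089 CPM, in replicate 2 on LN523. From day 2 to day 22, all 7 pluripotency markers fell and all 6 neural retina progenitor markers rose on each matrix, and 5, 4, and 4 of 6 photoreceptor markers, 5, 6, and 5 of 7 pigment epithelium markers, 5, 5, and 4 of 6 keratinocyte markers, and 7 of 8 mesenchymal cell markers rose on LN523, LN323, and LN521, whereas 2, 3, and 2 of 6 endothelial and 2, 2, and 3 of 3 neural crest and glial markers fell (edgeR, adjusted p under 0.05). The endothelial markers PECAM1 and CDH5 did not exceed 7.15 and 3.04 CPM in any library. KDR and TEK of the same list had group means of 169 to 293 and 46.4 to 61.1 CPM at day 2. At day 22 their group means were 5.09 to 8.16 and 5.33 to 7.15 CPM. In such bulk libraries, fewer cells of a type and less RNA per cell cannot be told apart.

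The 10 genes held a small part of each library at day 2 and a larger part later. They took 0.132% of all counts in the median day 2 library (range 0.101% to 0.173%), 0.706% at day 22 (0.384% to 0.888%), and 0.56% at day 32 (0.316% to 0.709%). Levels were compared between genes on the deposited TPM, a length-scaled share of all transcripts, with the median and range over the 9 libraries of a day. At day 2, SPARC led at 236 TPM (201 to 245), followed by AGRN at 162 (113 to 184) and FN1 at 63.9 TPM (40 to 97.7). The ranges of SPARC, AGRN, and FN1 did not overlap. NID1 at 38.4 TPM and HSPG2 at 32.6 TPM overlapped each other and FN1. The range of HSPG2 lay above that of NID2. NID2 at 8.39, NTN1 at 4.44, TNC at 3.52, and NTN4 at 2.45 TPM formed a lower run whose neighbours overlapped, and VTN was last at 0.535 TPM (0.248 to 1.29).

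The order changed at its top and its bottom by day 22. SPARC reached 1984 TPM (1487 to 2749), and its median rank among the 44852 genes went from 662 to 52. FN1 passed AGRN at 631 TPM (215 to 1117), with a median rank that went from 2894 to 188. AGRN stood at 212 TPM (196 to 277), with a range that overlapped that of FN1 and lay above that of NID1. TNC, NTN1, and NID2 then lay at 21.7, 21.1, and 21 TPM, followed by VTN at 13.4 and NTN4 at 9.84 TPM. The ranges of these 5 genes overlapped from each to the next and lay, for TNC, below that of HSPG2. At day 32 the order of the medians was the same, with SPARC at 1893, FN1 at 506, AGRN at 213, and TNC at 46.9 TPM.

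**Figure D1:**
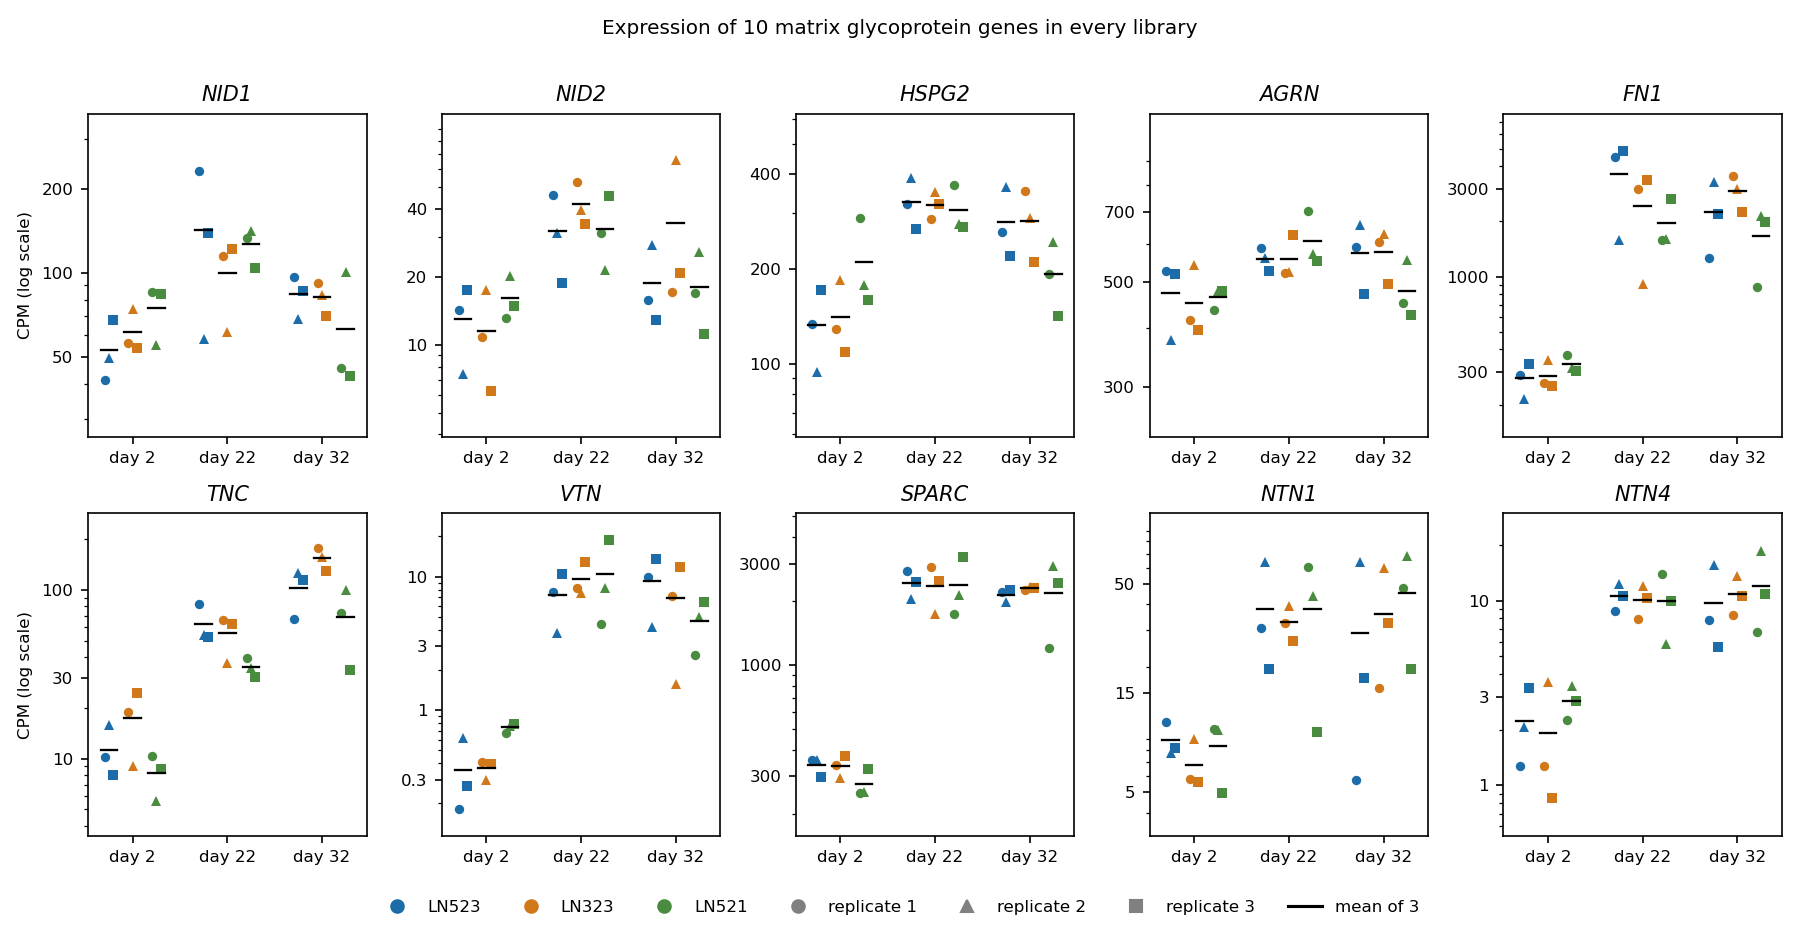
CPM after TMM normalization (log scale, a separate range in each panel) of the 10 genes in all 27 libraries, by day and matrix, with replicates as shapes and the mean of 3 as a bar. FN1, TNC, VTN, SPARC, and NTN4 lay higher in all 9 day 22 libraries than in all 9 day 2 libraries, whereas the AGRN libraries of the 3 days overlapped. How many of all genes separate these days in the same way was not counted.

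Gene positions are given on GRCh38 from GENCODE 44. The first question was how the 10 genes changed over the first 20 days of differentiation on each matrix. From day 2 to day 22, 9 of the 10 genes rose on LN523, 8 rose on LN323, and 7 rose on LN521, and 0 fell. The threshold was a Benjamini-Hochberg adjusted p-value under 0.05 over all 44852 genes in edgeR's quasi-likelihood test, with 3 libraries a group. Over all genes, 11.5% were higher at day 22 on LN523, 11.8% on LN323, and 10.8% on LN521, and 10.2%, 10.9%, and 8.09% were lower. These shares include genes with few counts. With such genes left out by edgeR's filterByExpr, the share was larger, at 5677, 5757, and 5221 higher of 25682 genes on the 3 matrices. The median log2 fold change of the 10 genes was 2.05, 2.12, and 2 on the 3 matrices, against 0.02, 0.02, and -0.02 over all genes. The 7 genes NID2, FN1, TNC, VTN, SPARC, NTN1, and NTN4 passed on every matrix.

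**Figure D2:**
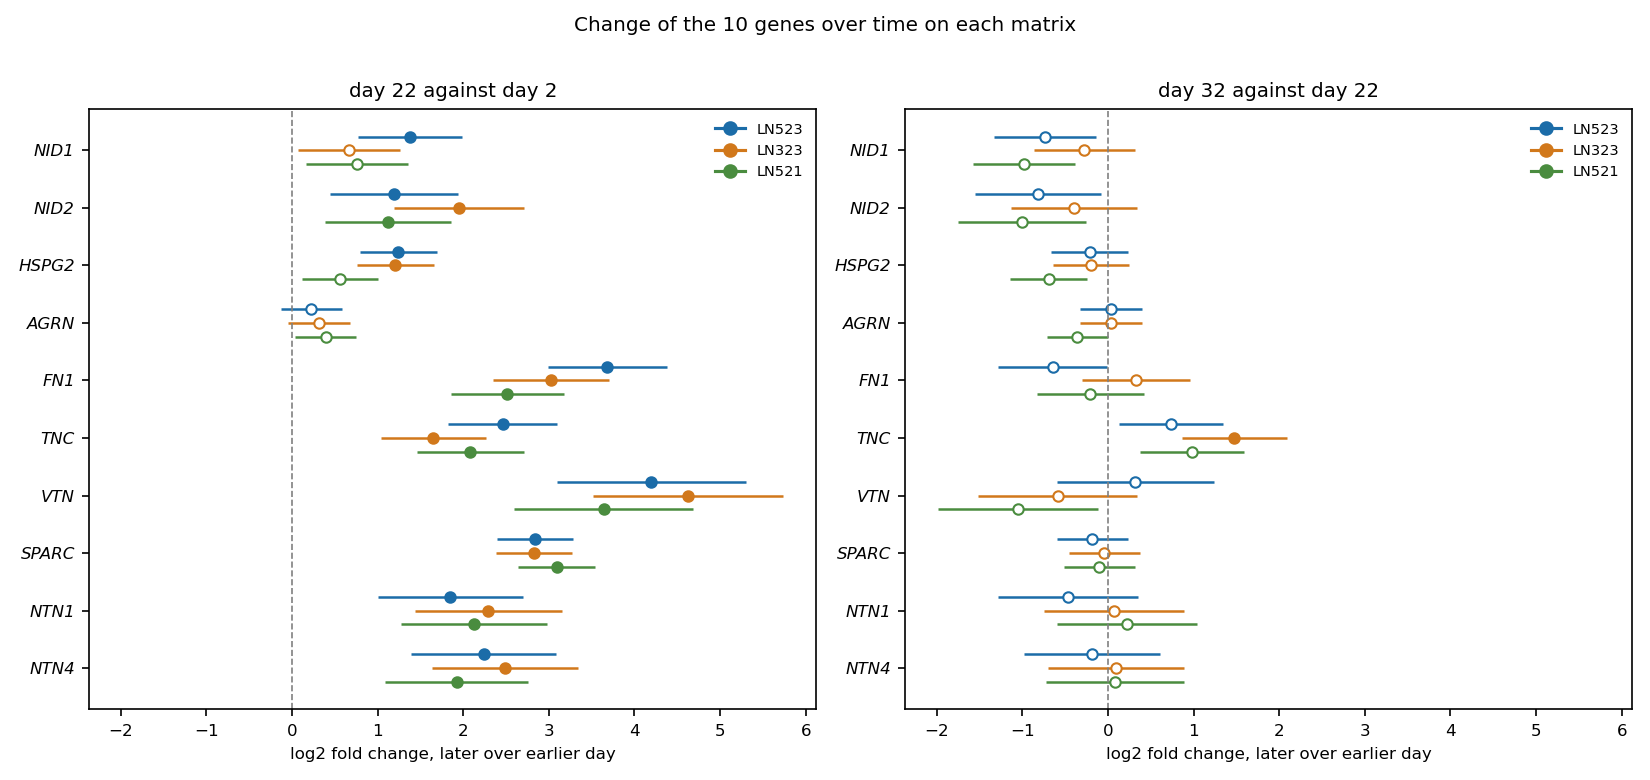
Log2 fold change of each gene (later over earlier day) on LN523, LN323, and LN521, from day 2 to day 22 (left) and from day 22 to day 32 (right), with 95% confidence intervals and filled points for genes past the threshold. On the left, VTN, FN1, and SPARC lie farthest to the right and AGRN nearest to 0, and on the right TNC on LN323 is the filled point.

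FN1 (ENSG00000115414, chr2:215360440-215436073, minus strand) encodes fibronectin, which assembles into fibrils through integrins. On LN523, the FN1 libraries held 292, 214, and 334 CPM at day 2 and 4490.1, 1592, and 4833 CPM at day 22. On LN323 they held 263, 350, and 252 CPM and then 3019.7, 906, and 3369 CPM, and on LN521 373, 319, and 307 CPM and then 1586, 1601, and 2661 CPM. Every day 22 library was above every day 2 library, and replicate 2 was well below the other replicates at day 22 on LN523 and LN323. The log2 fold change was 3.68 ± 0.35 (SE) on LN523 (adjusted p = 1.5e-12), 3.02 ± 0.34 on LN323 (adjusted p = 2.53e-10), and 2.52 ± 0.33 on LN521 (adjusted p = 2.15e-08, edgeR).

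SPARC (ENSG00000113140, chr5:151661096-151686975, minus strand), a collagen-binding glycoprotein, rose with less spread. It was at 251 to 371 CPM in the 9 day 2 libraries (median 323) and at 1741 to 3236 CPM in the 9 day 22 libraries (median 2457), and the days did not overlap. The log2 fold changes were 2.84 ± 0.22 on LN523, 2.83 ± 0.22 on LN323, and 3.09 ± 0.22 on LN521, the last with the lowest adjusted p of the 30 values of this step (2.86e-16, edgeR). The 3 values were not shown to differ (joint edgeR test across all genes, adjusted p = 1).

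VTN (ENSG00000109072, chr17:28367284-28373091, minus strand) encodes vitronectin, an adhesion protein of serum and matrix. It was read by 7 to 33 counts in each day 2 library, or 0.182 to 0.79 CPM, and by 160 to 680 counts in each day 22 library, or 3.81 to 18.7 CPM. Its rise was the largest of the 10 on the log2 scale, at 4.2 ± 0.55 on LN523, 4.63 ± 0.55 on LN323, and 3.64 ± 0.52 on LN521, with adjusted p-values of 2.09e-08, 1.52e-09, and 1.74e-07 (edgeR). The standard errors were also the widest of the 10. VTN shares 17.3% of its exonic bases with a gene model on the same strand, ENSG00000273171, and reads there cannot be told apart.

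TNC (ENSG00000041982, chr9:115019575-115118207, minus strand) encodes tenascin-C, a glycoprotein of growing and remodelled tissue. Its libraries held 5.57 to 24.6 CPM at day 2 (median 10.3) and 30.3 to 82.8 CPM at day 22 (median 52.3), without overlap. The log2 fold change was 2.46 ± 0.32 on LN523 (adjusted p = 1.26e-08), 1.65 ± 0.31 on LN323 (adjusted p = 2.41e-05), and 2.08 ± 0.31 on LN521 (adjusted p = 5.41e-07, edgeR).

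The stretches upstream of FN1, SPARC, TNC, and VTN are shown because VTN, FN1, and SPARC had the 3 largest rises on every matrix and TNC passed the threshold between matrices on 2 days. They were read from RefSeq promoter windows on GRCh38.p14, which matched 8 of the 10 genes, with AGRN and NTN1 unmatched, and bases inside an annotated exon of the same gene were left out. All 4 lie on the minus strand and are written 5′ to 3′ from base -250 before the RefSeq start. The FN1 stretch is chr2:215436074-215436318, the SPARC stretch chr5:151686976-151687165, the TNC stretch chr9:115118208-115118407, and the VTN stretch chr17:28370308-28370557, where the RefSeq start lies inside the longer GENCODE gene. Capitals mark matches on either strand to 5 motifs. These were the TATA box, searched as TATAAA, the cyclic AMP response element, searched as TGACGTCA, the GC box, searched as GGGCGG, the CCAAT box, searched as its name spells it, and the AP-1 site, searched with any base at its centre as TGANTCA.
FN1: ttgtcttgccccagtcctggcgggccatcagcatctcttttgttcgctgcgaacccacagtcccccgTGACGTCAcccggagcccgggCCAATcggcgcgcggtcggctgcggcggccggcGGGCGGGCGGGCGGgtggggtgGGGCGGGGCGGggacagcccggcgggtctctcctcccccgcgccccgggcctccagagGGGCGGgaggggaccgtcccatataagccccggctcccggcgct
SPARC: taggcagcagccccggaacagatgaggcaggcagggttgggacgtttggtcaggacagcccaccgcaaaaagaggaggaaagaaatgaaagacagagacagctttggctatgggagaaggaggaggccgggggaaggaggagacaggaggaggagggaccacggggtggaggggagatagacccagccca
TNC: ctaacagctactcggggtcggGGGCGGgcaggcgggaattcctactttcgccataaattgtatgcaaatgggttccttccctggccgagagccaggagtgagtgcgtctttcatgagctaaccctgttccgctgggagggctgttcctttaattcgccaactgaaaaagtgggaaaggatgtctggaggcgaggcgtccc
VTN: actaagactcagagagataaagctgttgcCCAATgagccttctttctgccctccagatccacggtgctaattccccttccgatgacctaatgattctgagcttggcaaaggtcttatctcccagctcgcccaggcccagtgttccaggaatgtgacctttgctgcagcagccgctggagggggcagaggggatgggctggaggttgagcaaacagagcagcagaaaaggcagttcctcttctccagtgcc

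No motif among those searched occurred in all 4 stretches. FN1 held 1 cyclic AMP response element at -183 to -176, 1 CCAAT box at -162 to -158, and 6 GC boxes, of which neighbours overlap each other and run together in the capitals. TNC held 1 GC box at -229 to -224, VTN held 1 CCAAT box at -221 to -217, and SPARC held none of the 5 motifs. Of 35116 windows of 250 bases upstream of human genes, 1.65% held the response element, 42.6% a GC box, 32% a CCAAT box, 10.7% a TATA box, and 6.57% an AP-1 site. A match describes letters only.

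The netrins started low and rose on every matrix. NTN4 (ENSG00000074527, chr12:95657807-95791189, minus strand), a netrin that binds laminin, was at 0.851 to 3.64 CPM at day 2 and at 5.83 to 13.9 CPM at day 22, without overlap, with log2 fold changes of 2.24 ± 0.42 on LN523, 2.49 ± 0.43 on LN323, and 1.92 ± 0.41 on LN521 (adjusted p = 3.25e-05, 5.3e-06, and 0.000305, edgeR). NTN1 (ENSG00000065320, chr17:9021510-9244000, plus strand) encodes netrin-1, an axon guidance cue that is also needed for closure of the optic fissure. At day 22 it was at 30.6, 63.5, and 19.6 CPM on LN523, at 32.5, 39.2, and 26.5 CPM on LN323, and at 60.4, 43.6, and 9.72 CPM on LN521, against 4.95 to 10.9 CPM over the 9 day 2 libraries. Replicate 3 on LN521 was the only day 22 library within the day 2 range. The log2 fold changes of NTN1 were 1.85 ± 0.42, 2.29 ± 0.43, and 2.12 ± 0.43 on LN523, LN323, and LN521, with adjusted p-values of 0.00057, 2.7e-05, and 0.000109 (edgeR).

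The nidogens NID2 (ENSG00000087303, chr14:52004809-52069059, minus strand) and NID1 (ENSG00000116962, chr1:235975830-236065109, minus strand) changed less. NID2 rose by 1.2 ± 0.37 on LN523, 1.95 ± 0.38 on LN323, and 1.12 ± 0.37 on LN521 on the log2 scale (adjusted p = 0.0131, 4.93e-05, and 0.023, edgeR). Its libraries held 6.26 to 20.2 CPM at day 2 and 18.7 to 52.7 CPM at day 22, and 8 of the 9 day 22 libraries were above every day 2 library. Without replicate 3 at day 22 on LN521, the rise there was 0.62 with an adjusted p of 0.37, leaving out replicate 1, 2, or 3 at day 2 on LN521 ended that call too, and over the 16 alternatives of that value the adjusted p ranged from 7.78e-05 to 0.389 (edgeR, DESeq2, or limma). The LN523 rise was 0.79 without replicate 2 at day 2 and 0.89 without replicate 1 at day 22, neither past the threshold (adjusted p = 0.19 and 0.12, range over 16 alternatives 0.00129 to 0.19, edgeR, DESeq2, or limma). The opposite-strand gene RTRAF shares 30.7% of the exonic bases of NID2 and moved the other way, from a median of 298 CPM at day 2 to 167 CPM at day 22. Whether the counting used strand is not given in the sources used here.

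NID1 rose on LN523 alone by the threshold. Its day 2 libraries held 41.4, 49.5, and 67.6 CPM there and its day 22 libraries 231, 58, and 138 CPM, so that replicate 2 at day 22 lay within the day 2 range. The log2 fold change was 1.38 ± 0.3 on LN523 (adjusted p = 0.000313), 0.67 ± 0.3 on LN323 (adjusted p = 0.107), and 0.77 ± 0.3 on LN521 (adjusted p = 0.0637, edgeR). These 3 values were not shown to differ (joint edgeR test of the interaction, adjusted p = 1). On LN323, replicate 2 was again the low library at day 22, at 61.6 CPM against 115 and 122 CPM, and without any library of replicate 2, a setting chosen after the data were seen, the rise on LN323 was 1.11 with an adjusted p of 0.00011 (range over its 16 alternatives 0.00011 to 0.701). NID1 on LN521 went from 85.5, 55.1, and 84.2 CPM to 134, 142, and 104 CPM, without overlap. It passed there with only the 6 libraries compared (0.77, adjusted p = 0.000354) and without replicate 3 at day 22 (0.95, adjusted p = 0.0311, edgeR). Dropping all of replicate 1, also after seeing the data, gave 0.84 (adjusted p = 0.0181, edgeR). It missed the threshold in the other alternatives, such as without any library of replicate 2 (0.48, adjusted p = 0.237, edgeR).

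The proteoglycan core proteins differed from each other. HSPG2 (ENSG00000142798, chr1:21822244-21937310, minus strand), which encodes perlecan, was at 133, 94, and 172 CPM on LN523, at 129, 185, and 109 CPM on LN323, and at 291, 178, and 159.5 CPM on LN521 at day 2. At day 22 it was at 269 to 388 CPM in all 9 libraries, which overlapped the day 2 libraries only at replicate 1 on LN521. HSPG2 rose on LN523 by 1.24 ± 0.23 (adjusted p = 1.81e-05) and on LN323 by 1.21 ± 0.23 (adjusted p = 2.55e-05), and the LN521 value was 0.56 ± 0.22 (adjusted p = 0.0715, edgeR). The edgeR joint test of a difference among the 3 changes gave an adjusted p of 1, with a range from 0.542 to 1 over 27 alternatives. AGRN (ENSG00000188157, chr1:1020120-1056118, plus strand), which encodes agrin, was at 378 to 544 CPM at day 2 and at 523 to 705 CPM at day 22, and the days overlapped on LN323 alone. Its log2 fold changes of 0.23, 0.32, and 0.39 on LN523, LN323, and LN521 had adjusted p-values of 0.485, 0.248, and 0.133 (edgeR), and their 95% intervals reached at most 0.75. On log2(TPM + 1) with limma, AGRN passed on LN523 (0.56, adjusted p = 0.0113) and LN323 (0.65, adjusted p = 0.00392), a scale on which the median of all genes tested stood 0.24 and 0.19 above 0. Over the 16 alternatives, the adjusted p of AGRN ranged from 0.0109 to 1 on LN523 and from 0.00375 to 0.889 on LN323.

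The next question was whether the 10 genes changed further between days 22 and 32. The day 22 libraries stand in both steps, so the 2 sets of values are not independent. By edgeR, 0 of 10 genes passed on LN523 and on LN521, and TNC alone passed on LN323. Over all genes, 0.381% passed on LN523, 0.0424% on LN323, and 0.268% on LN521. At an unadjusted p under 0.05, 4 of the 10 passed on LN523, 1 on LN323, and 5 on LN521 (edgeR). Over all 44852 genes, 1963, 1280, and 2763 did so. DESeq2 called 0 of the 10 at its adjusted threshold on each matrix. The median log2 fold change of the 10 genes was -0.2, 0, and -0.28 on LN523, LN323, and LN521, and that of all genes was 0 on each.

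TNC was the gene past the threshold in the second step, on LN323 alone. On LN323 its libraries went from 66.3, 36.9, and 63.1 CPM to 178, 158, and 129 CPM, with every day 32 library above every day 22 library. The log2 fold change was 1.48 ± 0.3 (adjusted p = 0.0331, edgeR), and only 6 of 16 alternatives passed, with adjusted p-values from 2.73e-11 to 0.943. The value missed the threshold under DESeq2 (1.47, adjusted p = 0.144) and without replicate 1, 2, or 3 at day 22 or replicate 2 at day 32 on LN323, where it was 1.25 to 1.69. In this step on LN323, 1 of 7 pluripotency markers fell (list median -0.48), 1 of 6 keratinocyte markers rose (list median 1.51), and 0 of 8 mesenchymal cell markers passed (list median 1.35), and their part in the TNC value was not tested. On LN523 the TNC libraries held 67.6, 126, and 114 CPM at day 32 (0.74 ± 0.3, adjusted p = 0.838), and on LN521 73.3, 99.5, and 33.3 CPM (0.98 ± 0.3, adjusted p = 0.242, edgeR). On LN523, TNC passed only without any library of replicate 1, a setting chosen after the data were seen (1.17, adjusted p = 0.0164, edgeR). On LN521 it passed only without replicate 3 at day 32 (1.32, adjusted p = 0.0452, edgeR). The 3 changes were not shown to differ (edgeR joint test, adjusted p = 1).

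The nidogens had negative values in this step on every matrix, from -0.27 to -0.98 for NID1 and from -0.4 to -1 for NID2, with adjusted p-values of 0.225 or more (edgeR). The day 32 libraries of NID1 on LN521, at 45.6, 101, and 42.7 CPM, lay below its day 22 libraries at 134, 142, and 104 CPM. HSPG2 on LN521 likewise went from 369, 279, and 273 CPM to 192, 243, and 141 CPM without overlap (-0.69 ± 0.22, adjusted p = 0.306, edgeR). The log2 fold changes of SPARC were -0.18, -0.04, and -0.1 on LN523, LN323, and LN521, with 95% intervals that together spanned -0.6 to 0.37. AGRN ranged from 425 to 660 CPM at day 32, with the lowest log2 fold change on LN521, -0.36 ± 0.18 (adjusted p = 0.82, edgeR).

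FN1 in the second step depended on replicate 2. With all libraries, its log2 fold change was -0.64 ± 0.32 on LN523, 0.33 ± 0.31 on LN323, and -0.21 ± 0.31 on LN521, with an adjusted p of 1 on each (edgeR). The LN523 libraries went from 4490.1, 1592, and 4833 CPM at day 22 to 1265, 3296, and 2198 CPM at day 32, so that replicate 2 moved up while the others moved down. Without any library of replicate 2, chosen after the data were seen, FN1 was -1.46 ± 0.22 on LN523 (adjusted p = 3.51e-08), -0.11 ± 0.22 on LN323 (adjusted p = 1), and -0.59 ± 0.22 on LN521 (adjusted p = 0.26, edgeR). In that setting NID1 (-1.01) and NID2 (-1.13) also passed as lower at day 32 on LN523, and NID1 (-1.42), NID2 (-1.5), and HSPG2 (-0.94) did so on LN521.

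A joint test asked whether the change over time differed among the 3 matrices. With all 27 libraries, 0 of 10 genes passed for the step from day 2 to day 22, against 0.0245% of all genes, and 0 of 10 passed for the step from day 22 to day 32, against 0% of all genes (edgeR). At an unadjusted p under 0.05 there was 1 of the 10 in the first step, FN1, and 0 in the second (edgeR). Over all 44852 genes there were 1818 and 1507. DESeq2 called 0 of the 10 in either step. Without any library of replicate 2, a setting chosen after the data were seen, FN1 passed in both steps, with adjusted p-values of 0.00574 and 0.0199 (edgeR). These stand against 1 with all libraries and a range up to 1 over 27 alternatives. Replicate 2 was left out knowing that its FN1 levels departed from the others, so these p-values cannot decide whether the changes differ. In that setting the first rise of FN1 was 3.9 on LN523, 3.63 on LN323, and 2.6 on LN521.

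The last comparison was between matrices within a day. Few of the 10 genes passed, and no gene passed in the same pair of matrices on 2 days. At day 2, 0 genes passed for LN523 against LN323 (0.233% of all genes tested), 1 for LN523 against LN521 (0.624%), and 2 for LN323 against LN521 (2.5%). At day 22 the counts were 0 (0.013%), 2 (0.572%), and 0 (0.616%), and at day 32 they were 0 (0%), 0 (0.0609%), and 0 (0.117%), in the same order. For the comparisons with 0 genes by edgeR, between 0 and 4 of the 10 had an unadjusted p under 0.05. Over all genes tested, the number was between 514 of 38609 and 2034 of 39377 (edgeR). DESeq2 called 0 of the 10 there, except for TNC on LN323 against LN521 at day 32 (adjusted p = 0.0252). The comparisons of a day share libraries.

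**Figure D3:**
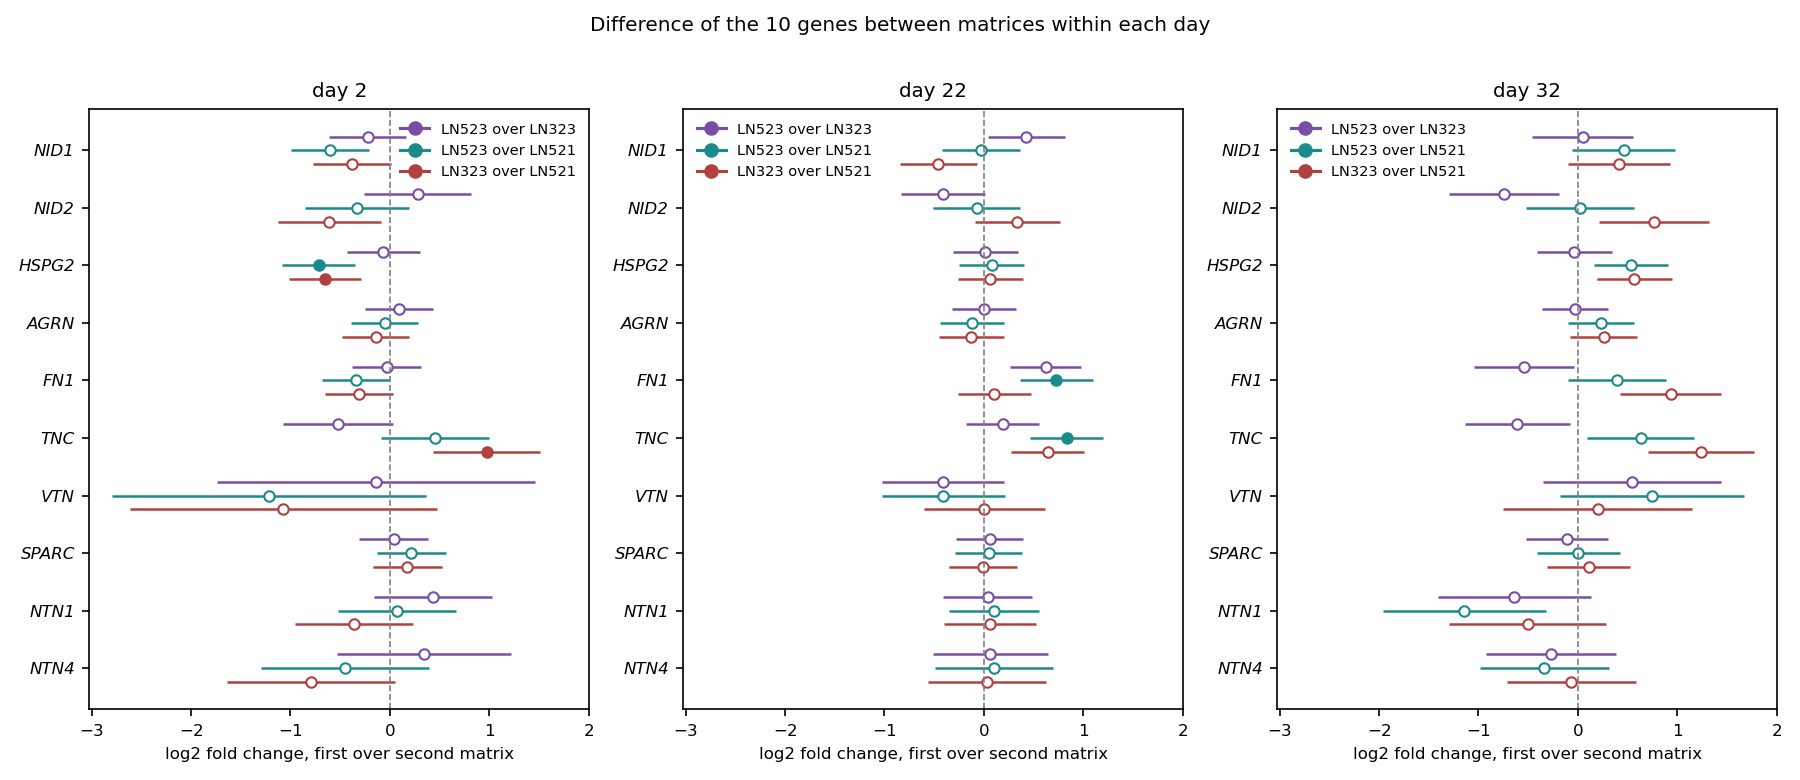
Log2 fold change of each gene between matrices (first over second) at days 2, 22, and 32, with 95% confidence intervals and filled points for genes past the threshold. HSPG2 and TNC are filled at day 2, FN1 and TNC at day 22, and none at day 32, and the AGRN and SPARC points lie between -0.14 and 0.26.

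At day 2, HSPG2 was lower on LN523 than on LN521 (-0.72 ± 0.19, adjusted p = 0.0306) and lower on LN323 than on LN521 (-0.65 ± 0.19, adjusted p = 0.0255, edgeR). The median over all genes in these 2 comparisons was -0.19 and -0.2. Without replicate 1 on LN521, at 291 CPM, the values were -0.33 and -0.28, each with an adjusted p of 1, and the groups overlapped in both comparisons even with it. Leaving out replicate 2 on LN521, replicate 1 or 2 on LN523, or replicate 1 or 3 on LN323 also ended the call of the pair it belongs to. TNC was higher on LN323, at 18.8, 9.08, and 24.6 CPM, than on LN521, at 10.4, 5.57, and 8.63 CPM (0.97 ± 0.27, adjusted p = 0.0232, edgeR). The groups overlapped, and leaving out any library of the pair except replicate 2 on LN323 ended the call, with the lowest value, 0.53, without replicate 3 on LN323. The HSPG2 calls passed in 6 and 7 of 17 alternatives and the TNC call in 5, with adjusted p-values up to 1, 1, and 0.909.

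At day 22, TNC was higher on LN523, at 82.8, 54.2, and 52.3 CPM, than on LN521, at 39.5, 34.3, and 30.3 CPM, without overlap (0.84 ± 0.18, adjusted p = 0.00658, edgeR). FN1 was higher on LN523 by 0.73 ± 0.18 (adjusted p = 0.0315, edgeR), higher in 2 of 3 lanes, and its groups overlapped. Both calls rested on the replicate block. Without the block, that is, with no pairing by lane, the values were 0.86 for TNC and 0.9 for FN1, with adjusted p-values of 0.757 and 0.904. TNC passed in 7 of 17 alternatives and FN1 in 3, with adjusted p-values up to 0.94 and 1. Leaving out replicate 1 on LN523, replicate 3 on LN523, or replicate 3 on LN521 ended both calls, and leaving out replicate 1 on LN521 took FN1 to 0.37. In the same comparison, 3 of 7 pluripotency markers (list median -1.91) and 3 of 7 pigment epithelium markers (-0.53) were lower on LN523, and 1 of 8 mesenchymal cell markers (0.47) and 1 of 6 keratinocyte markers (0.15) were higher (edgeR), and their part in the TNC and FN1 values was not tested. The pluripotency markers POU5F1 and NANOG were high on LN521 in replicate 1 alone. The LN521 libraries held 73.8, 1.33, and 1.48 CPM of POU5F1 and 10.9, 0.0474, and 0.11 CPM of NANOG. On LN523 these 2 markers were at 1.2 to 2.26 and 0 to 0.231 CPM.

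At day 32, TNC on LN323 was 1.24 ± 0.26 above LN521 on the log2 scale without overlap, at 178, 158, and 129 CPM against 73.3, 99.5, and 33.3 CPM, and just missed the threshold (adjusted p = 0.054, edgeR). FN1 in the same comparison was at 3527, 3016, and 2260.0 CPM against 873, 2134, and 1985 CPM (0.94 ± 0.25, adjusted p = 0.237, edgeR). In that comparison 2 of 8 mesenchymal cell markers were higher on LN323 (list median 1.35) and 1 of 7 pigment epithelium markers was lower (-0.54, edgeR), and their part in the TNC and FN1 values was not tested. Without replicate 1 at day 32 on LN521, 4 genes passed on LN323 against LN521, namely NID2, HSPG2, FN1, and TNC, and HSPG2 and TNC passed on LN523 against LN521. Calls over all genes grew too in that setting, to 2143 and 1907 of 38504, against 46 and 24 of 39377 with all libraries (edgeR). When LN523 and LN323 were fitted with no LN521 library at day 32, NID2, FN1, TNC, and NTN1 passed as lower on LN523 by 0.71, 0.46, 0.64, and 0.73, whereas 0 passed with LN521 in the fit. The same change of fit took the calls over all genes from 0 of 39377 to 1035 of 36703 (edgeR).

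Several genes varied with the replicate number. NTN1 on LN523 at day 32 was at 5.76, 64, and 17.7 CPM, an 11.1-fold range within the group. At day 32, NTN1 was highest in replicate 2 on all 3 matrices, at 64, 59.4, and 68.3 CPM, and so was NTN4, at 15.6, 13.6, and 18.6 CPM, and NID2, at 27.5, 65.9, and 25.9 CPM. VTN was lowest in replicate 2 on LN523 and LN323 at days 22 and 32, with 1.58 CPM on LN323 at day 32 against 7.19 and 11.8 CPM. The summed mesenchymal cell markers were highest in those replicate 2 libraries too, at 5632 and 11089 CPM on LN523 and at 4196 and 16898 CPM on LN323 at days 22 and 32. Of the 8 markers, none was at 0 or under 1 CPM in every library of a day 22 or day 32 group, and the group means of COL3A1, a fibrillar collagen, were 621 to 4365 CPM. On LN521, replicate 2 did not hold the highest sum, with 1916 CPM at day 22 and 3611 CPM at day 32. The part of the mesenchymal cell markers in these levels was not tested.

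**Figure D4:**
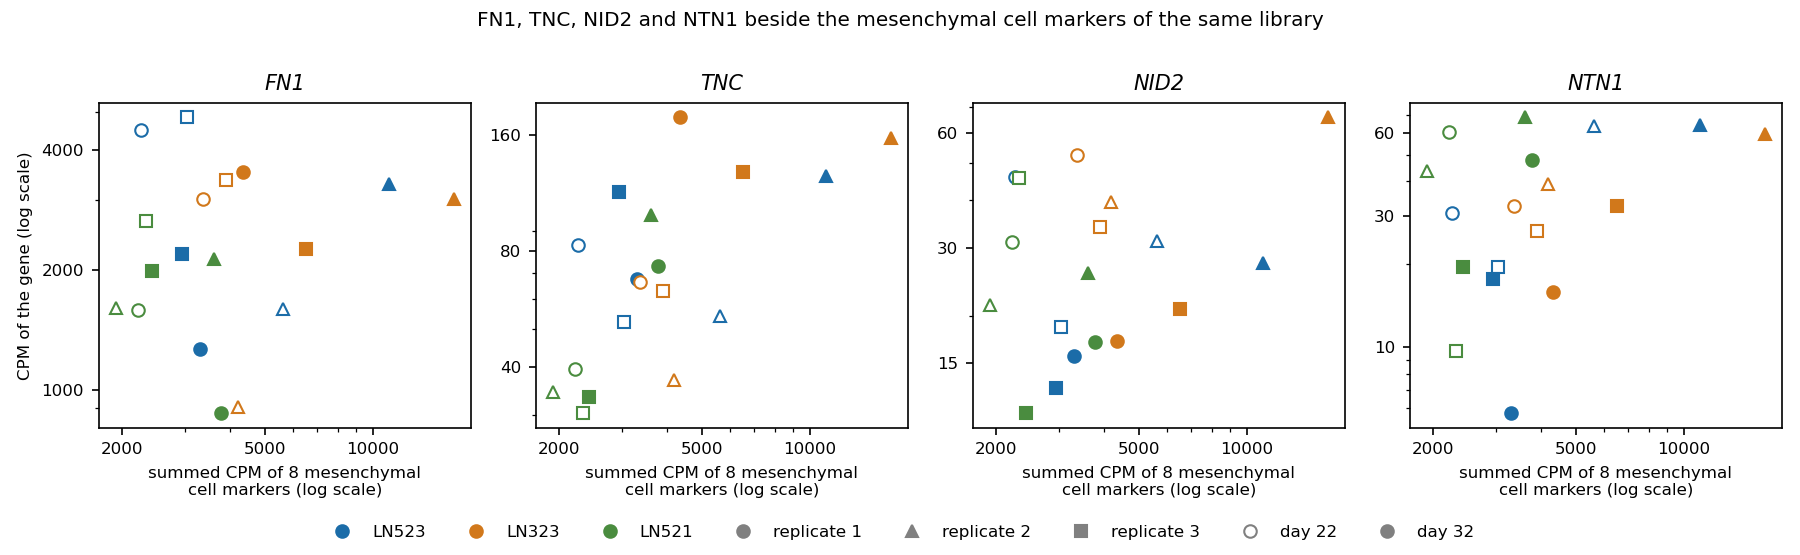
CPM of FN1, TNC, NID2, and NTN1 (log scale) against the summed CPM of 8 mesenchymal cell markers (log scale) in the 18 libraries of day 22 (open) and day 32 (filled), with matrices as colours and replicates as shapes. Replicate 2 on LN523 and LN323 at day 32 lies at the right of each panel, at 11089 and 16898 CPM of markers, and the lowest FN1 values are 873 CPM in replicate 1 on LN521 at day 32 and 906 CPM in replicate 2 on LN323 at day 22.

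Other genes of the matrix were counted from lists chosen by symbol. These lists and the 10 genes were chosen with earlier results of these data known, so a contrast between them is descriptive only. Of 44 other matrix glycoproteins, 24, 23, and 22 rose and 7, 6, and 7 fell from day 2 to day 22 on LN523, LN323, and LN521, with median log2 fold changes of 1.2, 1.17, and 1.13 beside the all-gene medians above. Over all genes, 11.5%, 11.8%, and 10.8% rose and 10.2%, 10.9%, and 8.09% fell. RELN, which encodes the neuronal glycoprotein reelin, rose from 1.61 to 2.36 CPM to 553 to 815 CPM as group means, and LGI1, a secreted synaptic protein, was at 0 counts in every day 2 library and at least 19.3-fold to 31.9-fold higher at day 22, against 3 counts a library. MFGE8, a milk fat globule adhesion protein, fell by 2.77 to 2.9, and PAPLN, which encodes papilin, by 2.21 to 4.38 on the log2 scale. Of 11 other heparan sulfate core proteins, 2, 3, and 6 rose and 1 fell on each matrix, so that the falls and the rises on LN523 were near the shares of all genes, with medians of 0.37, 0.21, and 0.76. The glypican GPC6 rose by 2.84 to 2.94, whereas the glypican GPC4 fell by 1.46 to 1.67.

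Receptors that bind the 10 proteins moved in both directions. Of 18 receptors, 9, 7, and 7 rose and 4 fell on each matrix, beside the same shares of all genes, with medians of 0.91 (0.89 with MUSK, which was at 0 counts at day 2 on LN523, set at its bound), 0.41, and 0.76. ITGA8, an integrin subunit that pairs with the beta 1 subunit, rose from group means of 0.0155 to 0.11 CPM to 1.44 to 11.5 CPM, and UNC5C, a netrin receptor, rose by 4.18 to 4.56 on the log2 scale. Another netrin receptor, UNC5A, fell by 1.69 to 2.6, and STAB1, a scavenger receptor for SPARC, fell by 2.84 to 3.05. The list calls used edgeR with the same threshold, and the highest adjusted p among these named genes was 0.00444, for UNC5A.

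**Figure D5:**
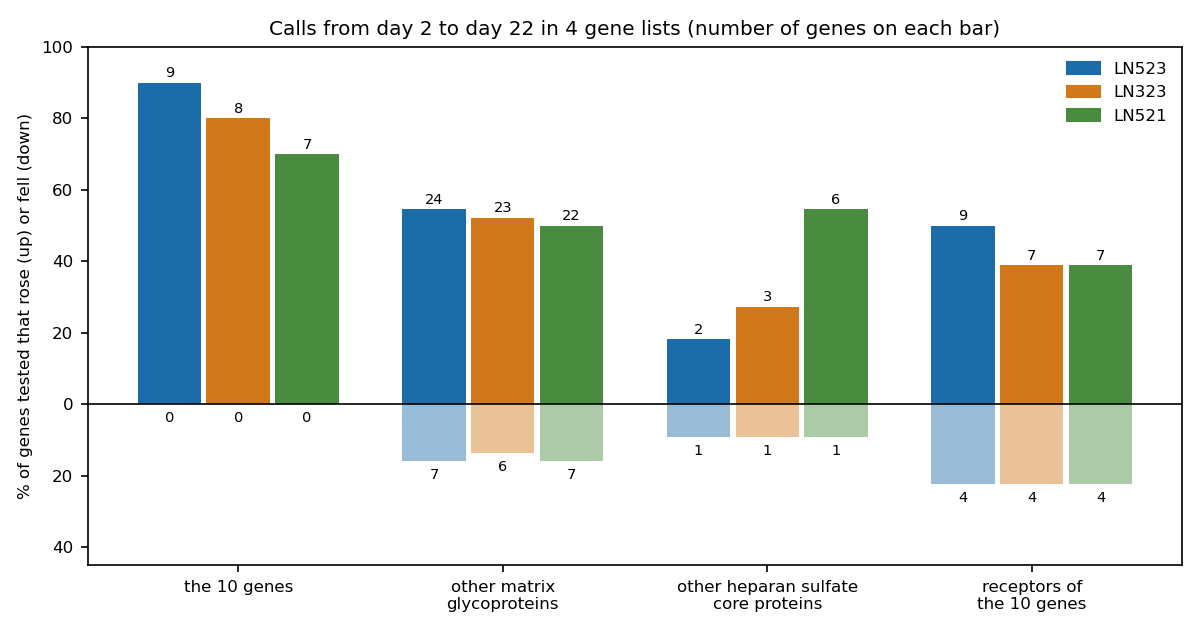
Percent of the genes tested in each list that rose (upward bars) or fell (downward, paler bars) from day 2 to day 22 on LN523, LN323, and LN521, with the number of genes on each bar. The 10 genes have 9, 8, and 7 rises and 0 falls, and the other 3 lists drawn hold genes of both directions.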

How the data were processed

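Per the study's methods and the labels, ribosomal RNA-depleted stranded libraries were sequenced as 150 bp pairs, trimmed with cutadapt, aligned with STAR 2.5.2b to GRCh38 (Ensembl 79), and counted with featureCounts 1.5.1. The authors deposited whole-number counts per gene, with ribosomal and mitochondrial genes removed, and TPM made by the authors from such counts. Whether counting used strand is not given in the sources used here. Gene names and positions came from GENCODE 44.

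Groups followed the labels. Genes with more than 1 count in sum were tested with edgeR 4.0.16 (R 4.3.3; TMM, quasi-likelihood, Benjamini-Hochberg over all genes tested). Time contrasts and joint interaction tests used all 27 libraries, and matrix contrasts used the 9 libraries of a day. The replicate number, which equals the sequencing lane in the labels, was a block. Correlations of same-lane deviations from the group means, between LN523 and LN323, were 0.402 to 0.772 at day 22, 0.596 to 0.68 at day 32, and -0.508 to 0.0683 at day 2. Between LN523 and LN521 they were -0.166 to 0.362 at day 22, -0.213 to 0.332 at day 32, and 0.0196 to 0.287 at day 2. Between LN323 and LN521 they were -0.234 to 0.379, -0.282 to 0.147, and -0.227 to 0.11 on the same days in that order. Alternatives were no block, RLE normalization, filterByExpr, DESeq2 1.42.0, limma 3.58.1 on log2(TPM + 1) and log2(TPM + 0.1) of genes above 1 TPM in 3 or more libraries, other sets of libraries in the fit, and each library left out. Leaving out all libraries of 1 replicate number was added after seeing the data. The named genes are all 10 members and, from each other list, up to 2 rises and 2 falls whose mean reached 1 CPM in some group and that passed in the same direction on all 3 matrices from day 2 to day 22, by largest absolute median log2 fold change. PECAM1 and CDH5 were named in addition, as defining markers. The members and lists were chosen with earlier results of these data known. Of 133 list symbols, 132 matched.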

Additional observations from a re-analysis of the deposited data

How the results depend on the processing

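Of the 30 gene-level calls, those lost were 3 with no replicate block, 2 under RLE normalization, 7 under filterByExpr, 6 under DESeq2, 7 under limma on either TPM scale, and 2 with only the 6 libraries compared, and all 5 matrix calls were lost with all 27 libraries in the fit. No direction was reversed, and the cause of the losses was not tested. With no replicate block, that is, no pairing by lane, the LN523 against LN521 count at day 22 went from 2 to 0 and NID2 on LN521 from day 2 to day 22 was lost (1.03, adjusted p = 0.0569, edgeR), and the block changed no other call. The day 22 count of LN523 against LN521 was also 0 under filterByExpr, limma on either scale, all 27 libraries, and only the 6 libraries, and 1 under RLE and DESeq2. The counts at day 2 of LN523 against LN521 (1) and LN323 against LN521 (2) were 0 under filterByExpr, DESeq2, limma on either scale, and all 27 libraries. The LN323 count from day 22 to day 32 (1) was 0 under RLE, filterByExpr, DESeq2, and limma on either scale. Counts of 0 became 1 for LN323 against LN521 at day 32 under DESeq2, and with only the 6 libraries 1 for LN521 from day 22 to day 32, 1 for LN523 against LN323 at day 22, and 4 at day 32. Over all genes tested, 799 of 39377, 384 of 37858, 98 of 36409, and 1035 of 36703 passed in these settings, in that order.

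With 1 library, or all libraries of 1 replicate number, left out, the counts from day 2 to day 22 ranged from 8 to 9 on LN523, 8 to 9 on LN323, and 6 to 9 on LN521, and those from day 22 to day 32 from 0 to 3, 0 to 1, and 0 to 3. The joint counts ranged from 0 to 1 in both steps. For LN523 against LN323, LN523 against LN521, and LN323 against LN521 the ranges were 0 to 1, 0 to 2, and 0 to 5 at day 2, 0 to 2 in each at day 22, and 0 to 1, 0 to 2, and 0 to 4 at day 32. VTN was limited by depth at day 2, with 7 to 33 counts a library.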
